A study of Mus musculus with 21 samples.

Results

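The annexins are calcium-dependent proteins that bind phosphatidylserine and other acidic phospholipids on the inner face of cell membranes. They were followed here by RNA-seq in Ba/F3 cells, a murine interleukin-3 dependent line labelled pro-B, expressing JAK2-V617F, the activated kinase of myeloproliferative neoplasms. The annexins were the 8 members Anxa1, Anxa2, Anxa3, Anxa4, Anxa5, Anxa6, Anxa7 and Anxa11, of 14698 genes in all 4 tables together. They were taken by name, and the family was chosen by its differences in log2 CPM between each inhibitor group and its own DMSO group, which were already known. The values of these comparisons are therefore given as a description, with counts of calls but no p-value. Of the 8 members, 7 passed the filter on low expression in every table, and Anxa1 passed it in 1 table.

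The 21 libraries formed 7 groups of 3, and every group carried JAK2-V617F. DMSO_treated, Ruxo_treated and CHZ_treated cells were kept for 6 h with DMSO, 1 μM ruxolitinib or 1 μM CHZ868. Ruxolitinib is a type I inhibitor that binds the active form of the kinase, and CHZ868 is a type II inhibitor that binds the inactive form. Ruxo_wash and CHZ_wash cells were exposed to the same dose for 1 h, washed repeatedly in PBS and kept for 6 h without inhibitor, each with a DMSO group of its own, DMSO_wash and DMSO_wash_exp3. The labels do not say whether the libraries of a group came from separate cultures, so the p-values below measure the spread between libraries, which may be technical.

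Annexins share a conserved core that binds calcium and membrane, and differ in their N-terminal tails, which bind partner proteins. Anxa2 forms a tetramer with S100a10, Anxa1 binds S100a11, and the long tails of Anxa7 and Anxa11 bind the calcium sensors sorcin (Sri) and Pdcd6. Anxa5 has a short tail and is widely used as a probe for phosphatidylserine on dying cells, and Anxa6 carries a doubled core. Together they are known for membrane repair, vesicle traffic and the regulation of phospholipase A2.

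For the cells treated for 6 h, Anxa4, Anxa7 and Anxa11 are the members that were higher together, and the bases before their starts are shown for that reason. The windows hold the 250 bases before the annotated transcript start on the strand of the gene, from RefSeq (GRCm38.p6). They lie at chr6:86793585-86793834 on the minus strand for Anxa4, chr14:20480134-20480383 on the minus strand for Anxa7 and chr14:25841905-25842154 on the plus strand for Anxa11. Capitals mark GGGCGG on either strand, which reads CCGCCC on the other one.
Anxa4: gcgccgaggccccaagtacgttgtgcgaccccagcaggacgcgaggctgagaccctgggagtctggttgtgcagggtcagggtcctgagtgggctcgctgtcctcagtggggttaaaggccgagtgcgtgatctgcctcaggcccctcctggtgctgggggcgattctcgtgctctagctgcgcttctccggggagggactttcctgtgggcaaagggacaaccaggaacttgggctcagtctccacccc
Anxa7: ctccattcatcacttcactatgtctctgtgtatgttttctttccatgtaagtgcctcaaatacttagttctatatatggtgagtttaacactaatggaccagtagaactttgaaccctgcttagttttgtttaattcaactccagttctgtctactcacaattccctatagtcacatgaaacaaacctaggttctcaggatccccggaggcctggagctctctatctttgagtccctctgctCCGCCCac
Anxa11: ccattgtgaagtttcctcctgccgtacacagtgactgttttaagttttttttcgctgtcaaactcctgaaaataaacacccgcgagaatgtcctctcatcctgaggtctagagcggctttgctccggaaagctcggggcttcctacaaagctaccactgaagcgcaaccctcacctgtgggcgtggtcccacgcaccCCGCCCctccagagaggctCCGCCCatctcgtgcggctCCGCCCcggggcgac
Anxa4 held no such match, Anxa7 held 1 and Anxa11 held 3, and 32.7% of the 32851 RefSeq promoters with windows of this length held at least 1. The element to which STAT proteins bind was searched as TTCNNGAA, TTCNNNGAA and TTCNNNNGAA, which read the same on both strands and can overlap. One or more of these was held by 18.5% of all promoters and by 0 of the 8 windows of the 6 annexins that the table lists (Anxa1, Anxa2, Anxa4, Anxa5, Anxa7 and Anxa11), so these letters are not in these windows. The GC content was 64.8% before Anxa4, 42.4% before Anxa7 and 58.0% before Anxa11, against a median of 52.4% over all promoters. RefSeq lists a second, downstream start for Anxa4 and for Anxa7, and the window before the second start of Anxa7 held 4 matches to GGGCGG.

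Each member lies at a separate locus, positions being those of the GENCODE annotation of GRCm38. Anxa4 (ENSMUSG00000029994.17) lies at chr6:86736840-86793584, Anxa7 (ENSMUSG00000021814.17) at chr14:20455260-20480133 and Anxa11 (ENSMUSG00000021866.15) at chr14:25842156-25886804. Anxa5 (ENSMUSG00000027712.13) lies at chr3:36448923-36475894 and Anxa2 (ENSMUSG00000032231.14) at chr9:69453620-69491795. The other members are Anxa1 at chr19:20373428-20390944, Anxa3 at chr5:96793339-96845966 and Anxa6 at chr11:54979108-55033445. Exons of Anxa11 share 113 bases with Anxa11os on the opposite strand, those of Anxa2 share 98 with Gm16144 and those of Anxa4 share 75 with Gm44036, also on the opposite strand, and exons of Anxa3 share 112 with Gm42603 on the same strand. The longest coding transcript of Anxa11 matches the gene models Gm2260 over 657 bases at 100% identity and Gm2274 over 609 bases at 99.7%. Counting is not stated to use strand, so reads over bases shared by opposite strands cannot be told apart.

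In 3 of the 4 tables the values returned whole reads, which gave depths of 7880000 to 10670000 reads per library on the listed genes and 208 to 1688 reads for a member annexin in a library. The depth of the Ruxo_wash and DMSO_wash libraries is unknown, as their values are not whole reads. Ruxo_treated replicate 2, DMSO_wash replicate 2 and DMSO_wash_exp3 replicate 3 stood apart from the other libraries of their groups, with standard deviations of the log2 differences of 0.27 to 0.36 against 0.15 to 0.18 between the other 2 libraries. Pim1, a STAT5 target used to check the labels, was at 8.64, 8.69 and 8.72 log2 CPM (CPM being the reads of a gene scaled to a common library size) in DMSO_treated, at 6.01, 5.71 and 5.89 in Ruxo_treated and at 5.34, 5.48 and 5.63 in CHZ_treated. Of 15 markers of pro-B and Ba/F3 cells, 6 were in every table (Ptprc, Il3ra, Csf2rb, Csf2rb2, Cd79a and Cd79b). The other 9, among them Pax5, Ebf1, Rag1 and Dntt, were in no table. Some B-lineage markers were thus absent from the filtered data, while Cd79a and Cd79b were present. T cell markers were absent as well (0 of 4).

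Per kilobase of the longest coding transcript, Anxa5 and Anxa2 were the most abundant annexins in DMSO_treated cells, and Anxa6 the least abundant of the 7 measured there. Anxa5 stood at 5.75 ± 0.10 log2 CPM per kb (SD, n = 3), Anxa2 at 5.57 ± 0.06, Anxa7 at 5.25 ± 0.11, Anxa4 at 5.05 ± 0.08, Anxa11 at 5.00 ± 0.09, Anxa3 at 4.39 ± 0.13 and Anxa6 at 3.65 ± 0.05. The libraries of Anxa4 and Anxa11 overlapped on this scale, and those of the other neighbours in this order did not. In DMSO_wash cells the order was Anxa5 (7.12 ± 0.03), Anxa2 (6.06 ± 0.03), Anxa4 (5.52 ± 0.06), Anxa7 (4.49 ± 0.08), Anxa11 (4.32 ± 0.13), Anxa6 (3.97 ± 0.05), Anxa3 (3.25 ± 0.36) and Anxa1 (0.14 ± 0.23). DMSO_wash_exp3 cells had Anxa2, Anxa5, Anxa7, Anxa4 and Anxa3 within 6.09 ± 0.24 to 5.78 ± 0.07, with overlapping libraries between each neighbouring pair, then Anxa11 at 5.06 ± 0.02 and Anxa6 with libraries from 3.68 to 4.24.

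The control level of Anxa3, an annexin of myeloid cells, differed most between the 3 DMSO groups. Its log2 CPM was 5.00, 4.98 and 5.21 in DMSO_treated, 3.56, 3.95 and 4.27 in DMSO_wash, and 6.38, 6.46 and 6.52 in DMSO_wash_exp3. The 3 tables behind these levels were normalized separately, so the experiment and the normalization cannot be told apart. Anxa1, the annexin known for its anti-inflammatory action through formyl peptide receptors, was near the filter in the table that held it, at 0.95, 0.63 and 1.08 log2 CPM in DMSO_wash and 1.23, 0.19 and 1.10 in Ruxo_wash.

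**Figure D1:**
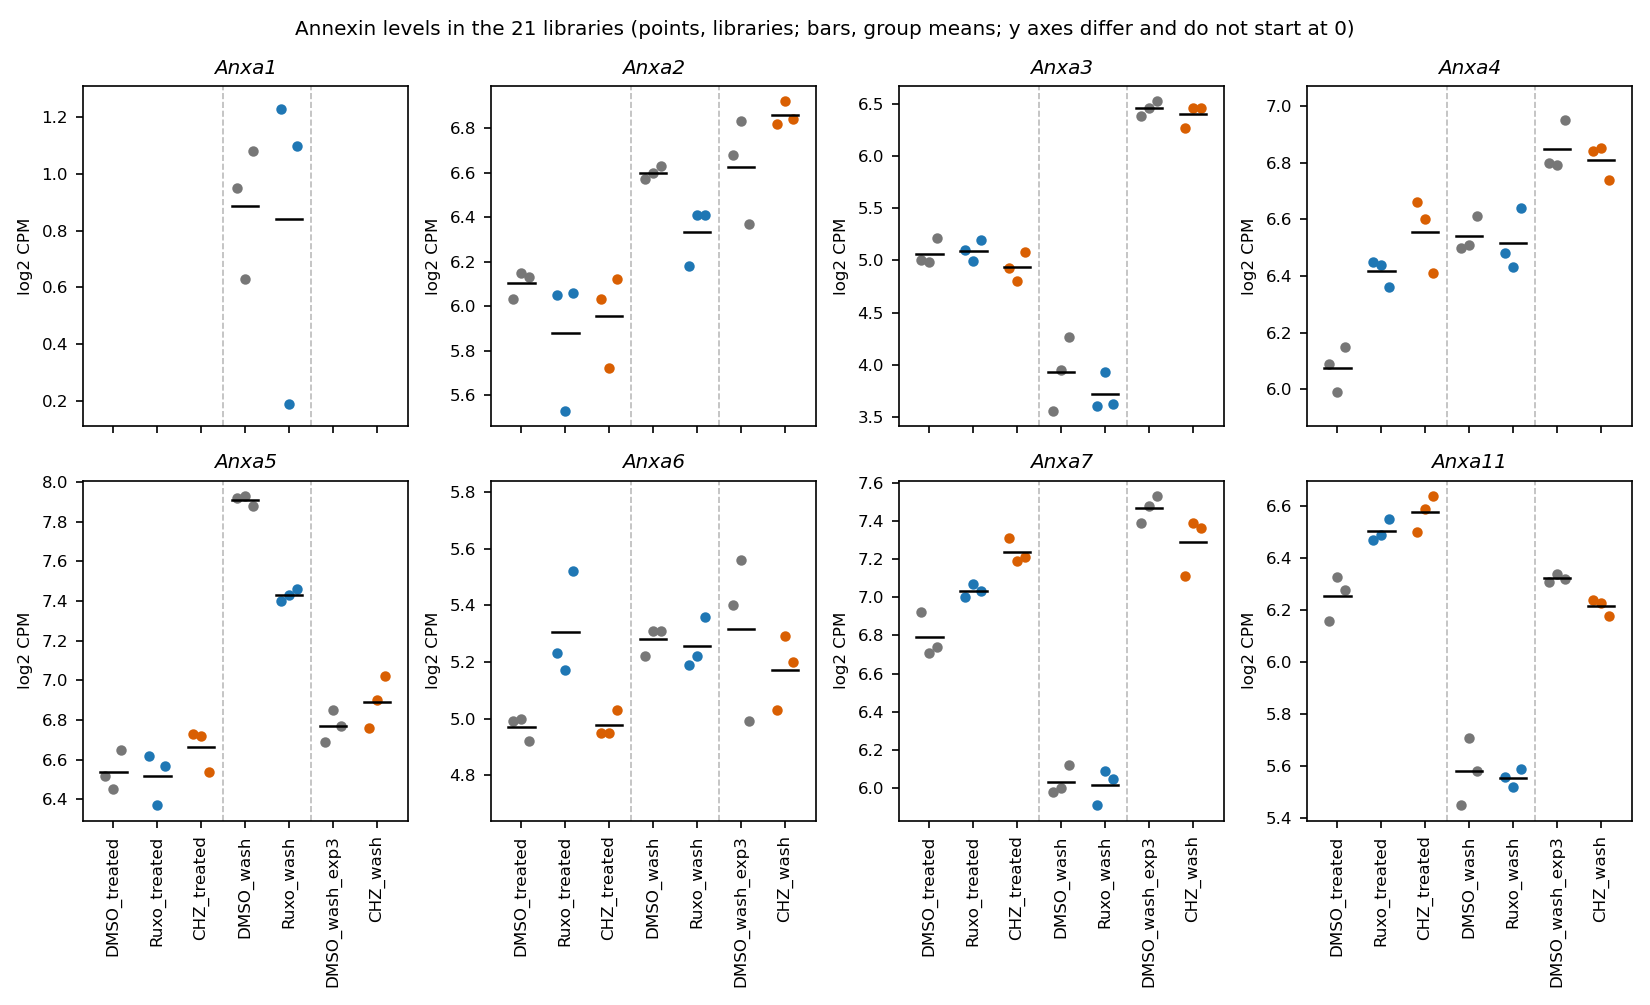
Level of each annexin (log2 CPM, y axis, scaled separately per gene and not starting at 0) in the libraries of the 7 groups (x axis); points are libraries, black bars are group means, and dashed lines divide the 6 h, ruxolitinib washout and CHZ868 washout experiments. CHZ_treated libraries lie above DMSO_treated libraries for Anxa4, Anxa7 and Anxa11, and the 3 Ruxo_wash libraries of Anxa5 (7.40 to 7.46) lie below the 3 DMSO_wash libraries (7.88 to 7.93).

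Exposure to CHZ868 for 6 h was accompanied by higher Anxa4, Anxa7 and Anxa11, while the libraries of Anxa2, Anxa3, Anxa5 and Anxa6 overlapped with those of DMSO_treated. Anxa4, a calcium-dependent binder of secretory and plasma membranes, was at 6.09, 5.99 and 6.15 log2 CPM in DMSO_treated and at 6.66, 6.60 and 6.41 in CHZ_treated. Every CHZ_treated library was above every DMSO_treated library, and the difference was 0.48 on the log2 scale (SE 0.08, n = 3 per group), or 1.39-fold. Anxa7, known as synexin and for fusing membranes, was at 6.92, 6.71 and 6.74 in DMSO_treated and at 7.31, 7.19 and 7.21 in CHZ_treated. The groups did not overlap, and the difference was 0.45 (SE 0.07), or 1.37-fold. Anxa11, a partner of Pdcd6 and of RNA granules, was at 6.16, 6.33 and 6.28 in DMSO_treated and at 6.50, 6.59 and 6.64 in CHZ_treated. Again the groups did not overlap, with a difference of 0.32 (SE 0.08), or 1.25-fold.

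Of the 7 annexins measured, 3 passed the threshold higher and 0 lower, in a comparison where 26.8% of all 11670 genes were called higher and 26.4% lower (limma-trend, adjusted p under 0.05 over all genes). The median difference of the 7 annexins was 0.12, beside -0.01 over all genes. Anxa4, Anxa7 and Anxa11 were called whichever of the 6 libraries was left out. For the other members the groups overlapped, and the differences were 0.12 (SE 0.08) for Anxa5, 0.01 (SE 0.11) for Anxa6, -0.13 (SE 0.12) for Anxa3 and -0.15 (SE 0.10) for Anxa2. The low end of Anxa2 rested on CHZ_treated replicate 2 at 5.72, beside 6.03 and 6.12 in the others, and without that library the difference was -0.03. Anxa11os, the transcript antisense to Anxa11, moved the opposite way to Anxa11, from 3.61, 3.84 and 3.67 in DMSO_treated to 2.55, 3.59 and 3.20 in CHZ_treated. Its difference was -0.59 (SE 0.24, adjusted p = 0.0486 by limma), and it was called with 2 of the 6 libraries left out in turn.

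Exposure to ruxolitinib for 6 h was set against the same DMSO_treated libraries with the median over 11624 shared genes subtracted from each library, since Ruxo_treated had a table of its own. These differences have no test, and both inhibitor groups share their control libraries. Anxa4, Anxa6, Anxa7 and Anxa11 were higher in every Ruxo_treated library than in any DMSO_treated library, which was the case for 24.6% of all genes. The centred difference was 0.32 for Anxa4 (SE 0.06), 0.32 for Anxa6 (SE 0.10), 0.23 for Anxa11 (SE 0.05) and 0.22 for Anxa7 (SE 0.07). Deviations from a DMSO mean, here and below, were taken after centring each library on its median over the 9973 genes in every table. As such deviations from the DMSO_treated mean, the Ruxo_treated libraries stood at 0.34, 0.34 and 0.25 for Anxa4, at 0.17, 0.26 and 0.21 for Anxa7 and at 0.18, 0.21 and 0.26 for Anxa11. The Ruxo_treated libraries of these 3 genes thus varied by no more than 0.09.

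After centring, Anxa2 was lower in every Ruxo_treated library than in any DMSO_treated library, as were 20.1% of all genes. Its deviations were -0.09, -0.60 and -0.08 in Ruxo_treated and -0.07, 0.04 and 0.03 in DMSO_treated. As deposited, the groups overlapped, with Ruxo_treated at 6.05, 5.53 and 6.06 log2 CPM and DMSO_treated at 6.03, 6.15 and 6.13. The difference of -0.25 (SE 0.17) rested on Ruxo_treated replicate 2 and was -0.09 without it. Anxa3 (0.01, SE 0.09) and Anxa5 (-0.04, SE 0.09) overlapped with the controls. No annexin was apart by the stricter rule of no overlap and at least 0.5 on the log2 scale, which 6.55% of all genes met as higher and 9.24% as lower. The median centred difference of the 7 annexins was 0.22, beside 0.04 over all genes.

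**Figure D2:**
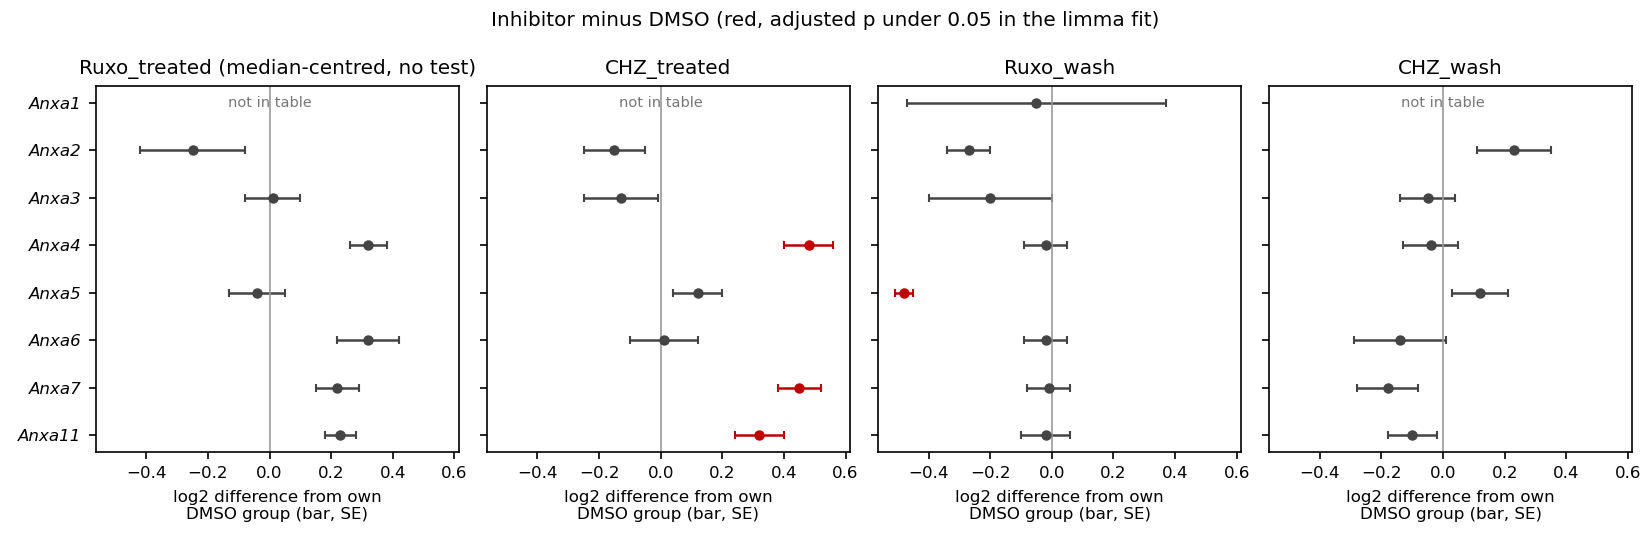
Difference of each annexin between an inhibitor group and its own DMSO group (x axis, log2 scale, bars are standard errors); the panels give Ruxo_treated (median-centred, without a test), CHZ_treated, Ruxo_wash and CHZ_wash, and red marks calls at an adjusted p under 0.05. Anxa4, Anxa7 and Anxa11 lie at 0.32 to 0.48 in CHZ_treated and at 0.22 to 0.32 in Ruxo_treated, and Anxa5 lies at -0.48 in Ruxo_wash.

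Set side by side at the same dose and time, the inhibitors differed by less than 0.3 on the log2 scale for each of the 7 annexins. Centred values were higher under ruxolitinib than under CHZ868 for Anxa6, by 0.28 (SE 0.10), and lower for Anxa7 (-0.26, SE 0.05), Anxa4 (-0.19, SE 0.08) and Anxa11 (-0.12, SE 0.05), with no overlap between the groups. For all genes the shares without overlap were 18.6% higher and 16.7% lower. For Anxa4 and Anxa11 the lack of overlap depended on the centring. As deposited, Ruxo_treated reached 6.45 log2 CPM for Anxa4 and 6.55 for Anxa11, and CHZ_treated went down to 6.41 and 6.50. As deviations centred over the 9973 genes in every table, Anxa11 overlapped too, with Ruxo_treated up to 0.26 and CHZ_treated from 0.24. Anxa2 (-0.13, SE 0.21), Anxa3 (0.11, SE 0.10) and Anxa5 (-0.19, SE 0.09) overlapped between the inhibitors. By the stricter rule no annexin was apart, against 7.12% of all genes higher and 6.65% lower under ruxolitinib, or 828 and 773 genes. Without centring that split was 1048 genes higher and 577 lower.

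Markers of other blood cells moved in the same 6 h libraries. The 4 erythroid markers measured of 5 summed to 544 to 590 CPM in DMSO_treated, 726 to 765 in CHZ_treated and 779 to 1135 in Ruxo_treated, and 3 of the 4 were called higher in CHZ_treated, beside 26.8% of all genes. The 3 macrophage markers measured of 5 summed to 73.0 to 77.2 CPM in DMSO_treated, 22.4 to 26.5 in CHZ_treated and 21.7 to 30.3 in Ruxo_treated, and the defining markers Adgre1 and Lyz2 were in neither table. In DMSO_treated most of that sum was Mpeg1, which differed by -2.81 in CHZ_treated and by -2.86 (centred) in Ruxo_treated. Csf1r differed by -1.18 (SE 0.32, called) and -0.31 (SE 0.36, centred), and Cd68 by 0.47 (SE 0.19, not called) and 0.04 (SE 0.32, centred). Of the 3, 2 were called lower in CHZ_treated and 0 higher, beside 26.4% and 26.8% of all genes. The 6 pro-B markers summed to 3350 to 3415, 2615 to 2873 and 2936 to 3468 CPM in the same order. Most of it was Csf2rb and Csf2rb2, which were called lower in CHZ_treated (-0.36 and -0.33), as was Il3ra (-0.24, SE 0.10). Cd79a was called higher there (0.42, SE 0.16) although its groups overlapped, and Cd79b (0.23, SE 0.18) and Ptprc (0.09, SE 0.08) were not called. With the 6 libraries left out in turn, the call of Cd79a held in 2 fits and that of Il3ra in 1. Of the 6, 3 were called lower and 1 higher, beside 26.4% and 26.8% of all genes. Of 7 mast cell and basophil markers, Gata2 was in every table and Hdc was also listed for Ruxo_treated, with sums of 677 to 715, 679 to 740 and 823 to 907 CPM. The part of these markers in the annexin differences and in those of the partner and membrane repair genes was not tested, and in bulk RNA fewer cells of a type and less RNA per cell cannot be told apart.

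After 1 h of CHZ868 and 6 h without it, Anxa4, Anxa7 and Anxa11 were at or slightly below the level of DMSO_wash_exp3. No group was taken at the end of the 1 h exposure, so whether these genes had risen by then is unknown. Anxa4 was at 6.84, 6.85 and 6.74 log2 CPM in CHZ_wash and at 6.80, 6.79 and 6.95 in DMSO_wash_exp3, a difference of -0.04 (SE 0.09). Anxa7 was at 7.11, 7.39 and 7.36 against 7.39, 7.48 and 7.53, a difference of -0.18 (SE 0.10). Anxa11 was at 6.24, 6.23 and 6.18 against 6.31, 6.34 and 6.32, a difference of -0.10 (SE 0.08) without overlap of the groups. None of the 7 annexins was called, in a comparison where limma called 1.96% of all 11355 genes higher and 2.07% lower and 2767 genes had an unadjusted p under 0.05. Of the 7, Anxa2 was the furthest above 0, at 6.82, 6.92 and 6.84 against 6.68, 6.83 and 6.37, and its difference of 0.23 (SE 0.12) was 0.10 without DMSO_wash_exp3 replicate 3. The difference was 0.12 for Anxa5 (SE 0.09), -0.05 for Anxa3 (SE 0.09) and -0.14 for Anxa6 (SE 0.15), the last being -0.30 without DMSO_wash_exp3 replicate 3.

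Exposure to ruxolitinib for 1 h followed by 6 h without it was accompanied by lower Anxa5. Anxa5 was at 7.92, 7.93 and 7.88 log2 CPM in DMSO_wash and at 7.40, 7.43 and 7.46 in Ruxo_wash, so that each Ruxo_wash library was more than 0.4 below each DMSO_wash library. The difference was -0.48 (SE 0.03, n = 3 per group), or 0.72-fold. Anxa5 was the 1 annexin of 8 that was called, lower, in a comparison where limma called 3 of 13085 genes lower (0.0229%) and 0 higher (0%), with 920 genes at an unadjusted p under 0.05. Leaving out a library moved the difference between -0.49 and -0.46, and the call was lost in each of the 6 fits. Without DMSO_wash replicate 2, which stood apart, the difference was -0.47.

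Anxa2 was at 6.57, 6.60 and 6.63 in DMSO_wash and at 6.18, 6.41 and 6.41 in Ruxo_wash. The groups did not overlap, and the difference of -0.27 (SE 0.07) did not pass the threshold. Anxa3 differed by -0.20 (SE 0.20), and its libraries overlapped. Anxa4 (-0.02, SE 0.07), Anxa6 (-0.02, SE 0.07), Anxa7 (-0.01, SE 0.07), Anxa11 (-0.02, SE 0.08) and Anxa1 (-0.05, SE 0.42) stayed within the spread of their libraries. In this table the near copies of Anxa11 were also listed, with Gm2260 between 2.66 and 4.17 and Gm2274 between -3.45 and 3.22 over the 6 libraries. Their part in the level of Anxa11 was not tested. In the same washout libraries the erythroid sum was 3816 to 3874 CPM in DMSO_wash and 3290 to 3382 in Ruxo_wash, the pro-B sum 400 to 421 and 330 to 358, and the macrophage sum (5 of 5 measured) 50.6 to 58.8 and 46.9 to 49.4. The erythroid sum was lower through Hba-a1 (-0.21, called), while Epor (0.23, SE 0.15), Gata1 (0.04, SE 0.06) and Klf1 (-0.01, SE 0.09) were not called. The call of Hba-a1 was also lost in each of the 6 fits with a library left out. In the pro-B list Csf2rb differed by -0.36 and Csf2rb2 by -0.43, and Cd79b by 0.31 without overlap, none of them called. Their part in the lower Anxa5 was not tested.

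The washout effects of ruxolitinib and CHZ868, each taken within its own table, were then subtracted over 10078 shared genes. For Anxa5 the ruxolitinib effect was 0.60 lower on the log2 scale, a difference of -0.60 (SE 0.10). As deviations from the own DMSO group, Ruxo_wash libraries stood at -0.51, -0.46 and -0.45, and CHZ_wash libraries at -0.01, 0.14 and 0.25. For Anxa2 the difference was -0.50 (SE 0.15), with deviations of -0.42, -0.17 and -0.19 in Ruxo_wash and of 0.19, 0.30 and 0.21 in CHZ_wash. It was -0.37 without DMSO_wash_exp3 replicate 3, whose own deviation was -0.27. Of the 7 annexins, Anxa5 was called, lower after ruxolitinib, as were 0.923% of all genes. The differences of Anxa3, Anxa4, Anxa6, Anxa7 and Anxa11 lay between -0.15 and 0.17 with standard errors of 0.10 to 0.21.

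**Figure D3:**
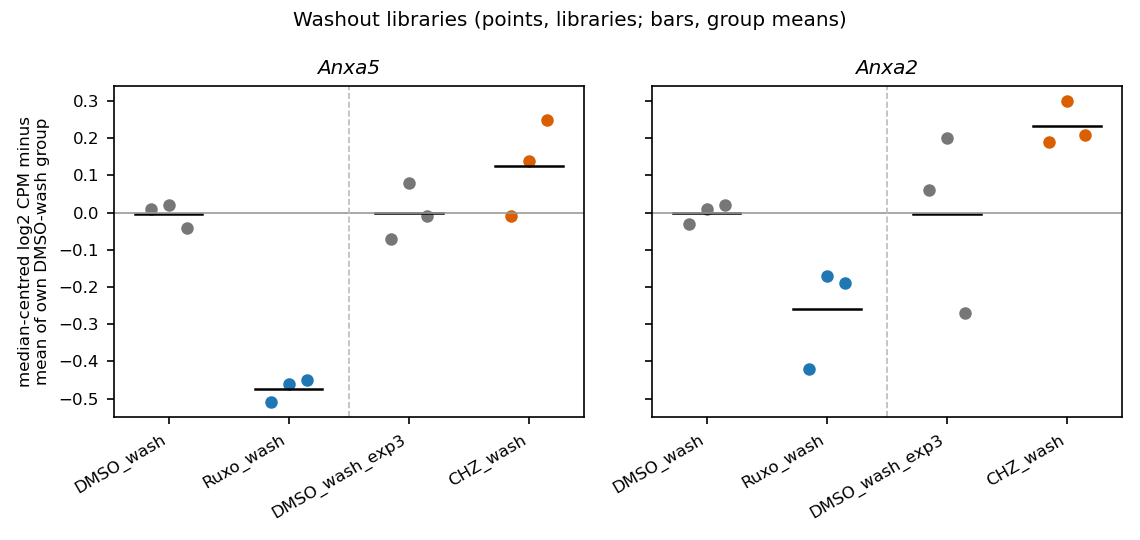
Median-centred log2 CPM of Anxa5 and Anxa2 minus the mean of the own DMSO group (y axis) in the washout libraries (x axis); points are libraries, black bars are group means, and the dashed line divides the 2 experiments. Ruxo_wash libraries of Anxa5 stand at -0.51 to -0.45 and CHZ_wash libraries at -0.01 to 0.25; for Anxa2, DMSO_wash_exp3 replicate 3 lies at -0.27.

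Over the 21 libraries, each taken as its deviation from the mean of its own DMSO group, Anxa4, Anxa7 and Anxa11 varied together. Pearson's r across libraries was 0.86 for Anxa4 and Anxa7, 0.83 for Anxa4 and Anxa11 and 0.80 for Anxa7 and Anxa11. The next highest pair was Anxa2 and Anxa5 at 0.51, and Anxa2 with Anxa4 gave -0.42. These values are a description, since libraries of an experiment share a DMSO mean. The deviations also hold the 6 h differences for which Anxa4, Anxa7 and Anxa11 were named. A high r among these genes follows in part from those differences and is no separate result. Among 9973 genes in every table, those most like Anxa4 were Rad21 (0.96, a cohesin subunit), mt-Co3 (0.94, a mitochondrial cytochrome oxidase subunit) and Cd180 (0.94). Anxa7 was most like Mad1l1 (0.95), Gtf2f1 (0.94) and Vat1 (0.94), and Anxa11 most like Efhd2, Cyb5r3 and Pdlim1 (0.93 each). Anxa5 was most like Bhlhb9 (0.87), Cnbd2 (0.83) and Gcsh (0.79), Anxa2 most like Neurl3 and Gabarapl2 (0.84 each), Anxa6 most like Prkcsh (0.91), Galnt10 (0.88) and Nop53 (0.87), and Anxa3 most like Oas1c (0.80), Akap11 (0.76) and Mysm1 (0.74).

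Some partners of the annexins rose with CHZ868, among them S100a11 and S100a10. This gene list and those below were chosen with earlier results of these data known, so their counts and p-values are a description. Of 11 listed partners and receptors, 7 were measured in CHZ_treated and DMSO_treated, and 4 rose and 0 fell by limma (adjusted p under 0.05), where 26.8% of all genes were called higher and 26.4% lower. Their median difference was 0.24, beside -0.01 over all genes. S100a11 was at 4.15, 4.27 and 4.18 log2 CPM in DMSO_treated and at 5.92, 5.78 and 6.08 in CHZ_treated, with no overlap. It rose by 1.73 (SE 0.11, adjusted p = 9.07e-09 by limma). S100a10, which holds Anxa2 at the plasma membrane, was at 5.36, 5.16 and 4.97 in DMSO_treated and at 5.62, 5.72 and 5.83 in CHZ_treated. It rose by 0.56 (SE 0.11, adjusted p = 6.62e-04 by limma), while its r with Anxa2 over the 21 libraries was 0.07. Pdcd6ip, known as Alix and recruited to damaged membrane, rose by 0.47 (SE 0.05, adjusted p = 4.22e-06 by limma), and Sri rose by 0.24 (SE 0.07, adjusted p = 0.00685 by limma). Pdcd6 itself differed by -0.01 (SE 0.08). Under ruxolitinib, the centred difference of S100a11 was 0.77 (SE 0.41), with Ruxo_treated libraries at 4.37, 5.74 and 4.88, and 0.39 without replicate 2. The centred difference of S100a10 was 0.07 (SE 0.11). By the rule of no overlap and at least 0.5, 1 of the 7 partners was apart higher under ruxolitinib, S100a11, and 1 was apart lower, beside 6.55% and 9.24% of all genes. The lower one was Pla2g4a, the cytosolic phospholipase A2, at 7.49, 7.54 and 7.49 log2 CPM in DMSO_treated, 6.94, 7.02 and 6.99 in Ruxo_treated and 7.44, 7.33 and 7.28 in CHZ_treated. Its centred difference under ruxolitinib was -0.54 (SE 0.03), and its difference with CHZ868 was -0.16 (SE 0.06), which did not pass.

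Of 15 listed membrane repair genes, 12 were measured after 6 h of CHZ868, and 8 rose and 0 fell, beside 26.8% of all genes called higher and 26.4% lower. Their median difference was 0.38, beside -0.01 over all genes. Tsg101, an ESCRT-I subunit, was at 5.27, 5.41 and 5.43 in DMSO_treated and at 6.69, 6.64 and 6.50 in CHZ_treated, a rise of 1.24 (SE 0.09, adjusted p = 1.65e-08 by limma). Capns1, the small calpain subunit, rose by 0.89 (SE 0.07, adjusted p = 6.50e-08 by limma), and Capn1, the large subunit of calpain-1, by 0.53 (SE 0.09, adjusted p = 1.15e-04 by limma). Chmp4c, an ESCRT-III subunit, differed by 0.53 (SE 0.28) and did not pass. After CHZ868 washout, 2 of the 12 fell, Capns1 by 0.54 (adjusted p = 0.0323 by limma) and Capn1 by 0.37 (adjusted p = 0.0437 by limma), and each call held for 2 of the 6 libraries left out in turn. In that comparison 2.07% of all genes were called lower and 1.96% higher. S100a6 was the 1 partner of 7 that rose there, by 1.06 (SE 0.25, adjusted p = 0.0454 by limma), a call held for 2 of the 6 libraries left out in turn. After ruxolitinib washout 0 of 12 membrane repair genes and 0 of 8 partners were called.

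**Figure D4:**
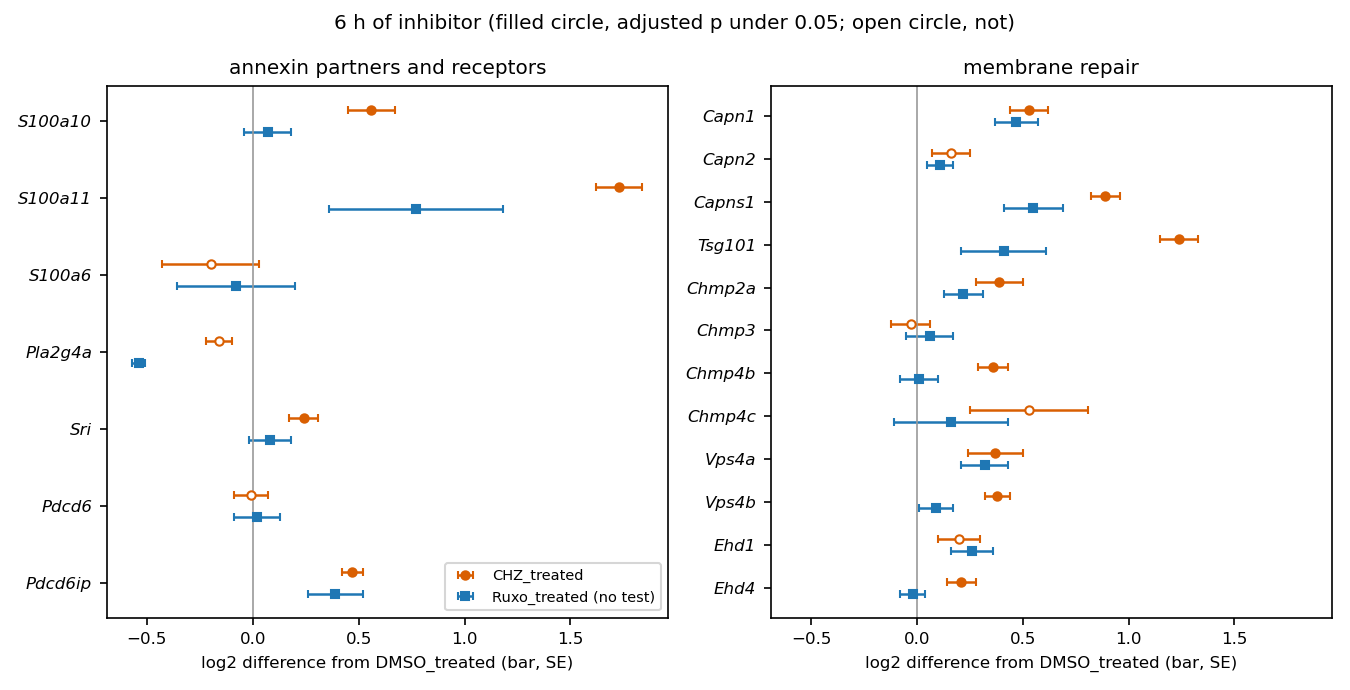
Difference from DMSO_treated (x axis, log2 scale, bars are standard errors) of the measured annexin partners and membrane repair genes after 6 h of CHZ868 (circles, filled where the adjusted p was under 0.05) or ruxolitinib (squares, median-centred, without a test). S100a11 lies at 1.73 and Tsg101 at 1.24 in CHZ_treated, against 0.77 and 0.41 in Ruxo_treated.

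Of the annexin genes outside the 8, Anxa9, which lacks the usual calcium-binding sites, was in every table, and Anxa8, Anxa10 and Anxa13 were in none. Anxa9 was at 4.84, 4.92 and 4.65 log2 CPM in DMSO_treated and at 4.28, 4.05 and 3.95 in CHZ_treated, all of them lower. It fell by 0.71 (SE 0.14, adjusted p = 5.91e-04 by limma), the opposite direction to Anxa4, Anxa7 and Anxa11. The centred difference under ruxolitinib was -0.23 (SE 0.08).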

How the data were processed

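RNA-seq was performed on 21 libraries, and the deposited values are log2 CPM, made by the authors from gene counts with a filter on low expression and TMM scaling in edgeR. The study's methods give kallisto and GRCm38, whereas the submitters' processing notes name STAR 2.7.3a, edgeR 4.0.16 and GRCm39, so the build behind the counts is unsure. Columns of each of the 4 tables were assigned to samples by name.

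Comparisons inside a table were fitted with limma-trend (limma 3.58.1, R 4.3.3) over all its genes, with Benjamini-Hochberg adjustment and a threshold of 0.05. The washout effects were subtracted in 1 fit of all 12 washout libraries. Ruxo_treated was compared after median centring, without a test. Scripts were tested on simulated data. Low values were whole reads within 0.02 reads in 3 tables. Loci and near copies (BLAST 2.17.0) came from GENCODE transcripts, promoters from RefSeq.

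The annexins and all gene lists were chosen with earlier results of these data known. All 8 annexins are named, up to 4 measured genes per list with the largest difference in CHZ_treated, and the 3 genes most correlated with each annexin; Pdcd6, Pla2g4a, S100a6, Tmem30a, Anxa11os, Gm2260, Gm2274 and the genes sharing exon bases were named outside that rule, after their values were seen. Some genes that the rule or the lists hold are not reported here. Replicate numbers were not used as pairs in the reported fits. Correlations of same-numbered deviations lay between -0.07 and 0.09, which cannot show how the libraries were handled, and the labels do not say whether the numbers pair the samples. Alternatives covered the trend, robust fitting, scaling, filter, constant, replicate block and left-out libraries.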

Additional observations from a re-analysis of the deposited data

Results flagged for a closer look

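Anxa5 differed between the washout experiments: the ruxolitinib washout effect minus the CHZ868 washout effect was -0.60 on the log2 scale (SE 0.10), lower in 3 of 3 Ruxo_wash libraries than in any CHZ_wash library relative to the own DMSO group. The difference itself was past the threshold of the limma fit over all shared genes, as were 0.923% of these genes in the same direction. The annexins were chosen with the washout effects known, so this is a description, and the call held for 5 of the 12 libraries left out in turn. The inhibitor and the experiment cannot be told apart.

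For Anxa7, every CHZ_treated library lay above and every CHZ_wash library below the mean of its own DMSO group, and the effects differed by 0.63. The same held for Anxa11, with a difference of 0.42. Under ruxolitinib, Anxa11 lay above the DMSO mean in every Ruxo_treated library. Its centred deviations in Ruxo_wash were -0.01, -0.05 and -0.00, and the effects differed by 0.24. As deposited, Ruxo_wash replicate 3 at 5.59 was above the DMSO_wash mean of 5.58. Whether these 3 differences exceed the spread between libraries was not tested. The treated cells had 6 h of inhibitor and the washout cells 1 h, so these differences do not show a reversal of the 6 h change.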

How the results depend on the processing

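The calls of Anxa4, Anxa7 and Anxa11 after 6 h of CHZ868 held in all 14 alternatives. The call of Anxa5 held in 5 of 13 alternatives after ruxolitinib washout and in 10 of 19 for the difference between washout effects. Over the 8 annexins and Anxa9, 646 of 668 alternative values stayed the same, 17 lost the call, 3 gained it and 2 moved. A called value stayed the same where it kept its call and direction, and 0 called values reversed. A value that was not called stayed the same where it remained close to the reported value, whatever its sign. Such signs could change, as for Anxa7 after ruxolitinib washout (-0.05 to 0.04). Without the mean-variance trend limma called 0 genes after CHZ868 washout (2562 at an unadjusted p under 0.05; 457 called in the reported fit), 9 genes and 0 annexins after ruxolitinib washout (3 genes and 1 annexin reported), and 14 genes and 0 annexins for the difference between washout effects (191 genes and 1 annexin reported). Robust fitting gave 5 genes after ruxolitinib washout. With a replicate block, the fit gave 0 genes (843 at an unadjusted p under 0.05) and 0 annexins after ruxolitinib washout. For the difference it gave 6 genes and 0 annexins. It changed no other annexin call, and the labels do not say whether replicate numbers pair the samples. Not every library correlated best with its own number. Leaving out 1 library gave 0 to 1426 genes after CHZ868 washout (1298 without DMSO_wash_exp3 replicate 2, 1426 without replicate 3, at most 1 without any other), 0 to 1 genes and 0 to 0 annexins after ruxolitinib washout (824 to 880 genes at an unadjusted p under 0.05), and 5 to 628 genes and 0 to 2 annexins for the difference (628 without DMSO_wash_exp3 replicate 2, 530 without replicate 3, at most 92 without any other). A minimum difference of 1 left 363 of 1835 genes apart between Ruxo_treated and DMSO_treated and 173 of 1601 between Ruxo_treated and CHZ_treated; leaving out a library gave 1472 to 2685 genes for the latter, the highest without Ruxo_treated replicate 2. The stricter minimum leaves fewer genes by its construction, and the cause of the other changes was not tested. The voom fit on whole reads gave 6256 genes after 6 h of CHZ868 and 465 after its washout, against 6214 and 457. It could not be run for the ruxolitinib washout, whose depth is unknown. With 3 libraries a group, a difference that missed the threshold does not show that levels were equal.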

Other observations

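Genes that set the exposure of phosphatidylserine, the lipid that annexins bind, were called in both directions after 6 h of CHZ868, at shares near those of all genes. Of 12 listed, 10 were measured, 2 rose and 3 fell, where 26.8% of all genes were called higher and 26.4% lower, with a median difference of -0.06 beside -0.01 over all genes. Ano6, a calcium-activated scramblase, was at 6.80, 6.81 and 6.72 log2 CPM in DMSO_treated and at 7.36, 7.37 and 7.42 in CHZ_treated, a rise of 0.61 (SE 0.06, adjusted p = 1.44e-06 by limma). Atp8b2, a P4-ATPase of the flippase family, fell by 0.81 (SE 0.08, adjusted p = 1.49e-06 by limma). Under ruxolitinib the centred difference of Ano6 was 0.95 (SE 0.12), and 0.83 without Ruxo_treated replicate 2. After CHZ868 washout Tmem30a, the flippase chaperone, was the 1 gene of 10 that rose, where 1.96% of all genes did, by 0.35 (adjusted p = 0.0446 by limma), a call held for 2 of the 6 libraries left out in turn. After ruxolitinib washout 0 of 11 were called.

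Of 9 copines and other calcium-dependent membrane binders, 6 were measured after 6 h of CHZ868, of which 2 rose and 1 fell, beside 26.8% of all genes called higher and 26.4% lower. Cpne2, a copine, was at 7.87, 7.79 and 7.91 log2 CPM in DMSO_treated and at 8.66, 8.61 and 8.69 in CHZ_treated, a rise of 0.80 (SE 0.06, adjusted p = 2.36e-08 by limma). Prkca, a conventional protein kinase C, rose by 0.63 (SE 0.06, adjusted p = 1.03e-06 by limma), and Esyt1, a tether between endoplasmic reticulum and plasma membrane, fell by 0.38 (SE 0.07, adjusted p = 3.03e-04 by limma). The centred difference of Cpne2 under ruxolitinib was 0.75 (SE 0.15). After washout 0 of 6 were called with CHZ868 and 0 of 8 with ruxolitinib.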
